A study of Homo sapiens with 5 samples.

Results

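The tubulin genes considered here are 10 genes of the alpha, beta and gamma families, chosen by their symbols among the 26485 genes in the deposited count table. The alpha genes were TUBA1A, TUBA1B and TUBA1C, the beta genes were TUBB, TUBB2A, TUBB2B, TUBB3, TUBB4B and TUBB6, and the gamma gene was TUBG1. All 10 had a row in the table and all 10 passed the filter on low counts. RNA-seq was performed on RPE1 cells, an established human line derived from the retinal pigment epithelium, with wild-type genotype in every library. The groups were 2 libraries of cells given the solvent DMSO, 2 of cells given 0.2 μM doxorubicin and 1 of cells given 0.34 μM doxorubicin, each for 18 h. Doxorubicin is an anthracycline that poisons DNA topoisomerase II. The treatment protocol writes the concentrations as 200 and 340 μM, and those attached to each sample are used here.

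Microtubules are polymers of dimers of alpha and beta tubulin, and they form the mitotic spindle, the tracks for intracellular transport and the core of cilia. Gamma tubulin does not enter the polymer in this way but sits in ring complexes that start new microtubules, mainly at centrosomes. Several genes encode each of the alpha and beta proteins, and these isotypes differ most in the acidic tail at the C-terminus and in the tissues that use them. Cells also sense free tubulin dimers. The ribosome-bound factor TTC5 starts the decay of alpha and beta tubulin mRNAs when it meets the first residues of the nascent chain.

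The libraries held between 23773061 and 36725345 counts on genes, and the 0.34 μM library was the deepest. Replicates of a condition stood apart from each other. The median absolute log2 difference over the genes tested was 0.365 between the DMSO libraries and 0.293 between the 0.2 μM libraries. The 0.34 μM library was 0.113 from replicate 1 and 0.276 from replicate 2 of 0.2 μM. The drug response was visible in CDKN1A, the p53-induced inhibitor of cyclin-dependent kinases, with 295 and 258 CPM (counts scaled to library size, TMM-normalized) in DMSO and 2975, 2366 and 3358 CPM in doxorubicin. PLK1, a mitotic kinase, lay at 208 and 190 CPM in DMSO and at 4.602, 4.45 and 3.83 CPM in doxorubicin. Of 8 markers of pigment epithelium, RPE65, RLBP1, TYR and TYRP1 had at most 8 counts in any library, whereas the transcription factors MITF and OTX2 had at least 743 and 601. The other markers of this list were low and higher in every treated library, with 7 and 5 counts of PMEL in DMSO against 22, 32 and 46, and 26 and 14 counts of BEST1 against 86, 30 and 142, and their part in the results was not tested. Of 5 epithelial and mesenchymal markers, the keratins KRT8 and KRT18, vimentin and CDH2 were abundant, whereas CDH1 had at most 4 counts in any library. KRT8 had 369 and 345.5 CPM in DMSO and 661, 636 and 661 CPM in doxorubicin. KRT18 was also higher in every treated library, vimentin was lower in each, and CDH2 overlapped between the groups. The part of these differences in the results was not tested. Of 7 neuronal markers, 4 had no count in DMSO (RBFOX3, ELAVL4, NEFL and DCX), and the list summed to between 1.83 and 3.60 CPM in DMSO and between 1.598 and 3.49 CPM in doxorubicin. Of 3 markers of blood and endothelium, all were detected, and they summed to between 0.381 and 2.70 CPM in DMSO and between 1.39 and 5.53 CPM in doxorubicin. PTPRC, a leukocyte gene, had 5 and 7 counts in the control libraries against 25, 53 and 72 counts in the treated libraries. CDH5, an endothelial cadherin, instead was high in replicate 2 of DMSO and of 0.2 μM, with 56 and 69 counts against at most 5 in the other libraries. PECAM1 had between 3 and 13 counts, and the part of such cells in the results was not tested. The list of pigment epithelium summed to between 53.8 and 87.6 CPM in DMSO and between 71.4 and 80.4 CPM in doxorubicin.

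In the alpha and beta genes, the start of the coding sequence encodes the N-terminal residues read by the TTC5 pathway. TUBG1 is listed beside them for comparison. The first 30 bases are given here, with the first 12 bases in capitals (5′ to 3′, canonical transcripts of GENCODE).
TUBA1A: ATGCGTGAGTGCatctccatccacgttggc
TUBA1B: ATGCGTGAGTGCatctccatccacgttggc
TUBA1C: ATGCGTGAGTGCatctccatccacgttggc
TUBB: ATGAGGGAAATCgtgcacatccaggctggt
TUBB4B: ATGAGGGAAATCgtgcacttgcaggccggg
TUBB3: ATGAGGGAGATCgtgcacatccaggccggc
TUBB6: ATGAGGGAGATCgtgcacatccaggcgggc
TUBB2A: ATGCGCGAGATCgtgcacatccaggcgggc
TUBB2B: ATGCGTGAGATCgtgcacatccaggcgggc
TUBG1: ATGCCGAGGGAAatcatcaccctacagttg

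The 3 alpha genes had identical first 30 bases. TUBB and TUBB4B shared their first 12 bases with each other, as did TUBB3 and TUBB6, whereas TUBB2A and TUBB2B each had their own. These base differences are synonymous, so the first 12 bases encode the same residues in every beta gene. The first 12 bases of TUBG1 encode other residues than those of the alpha and beta genes. Over the whole coding sequence, TUBA1A was 97.2% identical to TUBA1B and 95.9% identical to TUBA1C, and TUBB2A was 98.1% identical to TUBB2B. TUBB was between 80.9% and 84.7% identical to the other beta genes, and TUBG1 was at most 54.2% identical to any of the other members. These similarities bear on the counts, since the reads were 75 bases long. Of all 75-base stretches of the canonical transcript, those also present in another gene of the count table made up 42.2% for TUBA1B, 33% for TUBA1A, 18.1% for TUBA1C, 56% for TUBB2A and 46.8% for TUBB2B. For TUBG1 they made up 20.4%, all shared with TUBG2. For TUBB3 and TUBB4B they made up 6.8% and 9%, and for TUBB and TUBB6 there were none. With annotated genes outside the count table included, the shared part of TUBB was 24%, with 8.73% shared with TUBBP1. For TUBB3 it rose to 92.6%, all of it shared with ENSG00000198211, and for TUBA1B to 77.2%. For TUBA1C, TUBB2A and TUBB2B it was 36.5%, 59.5% and 52.1%, and TUBB6 still had none. The library kit was stranded, but the sources used here do not give the strand setting of the counting. Nor do they give its treatment of reads with several matches. The split of counts between TUBB2A and TUBB2B, and among the 3 alpha genes, is therefore uncertain. The count of TUBB may also depend on that treatment.

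First, the levels of the members in untreated cells were compared per length, as CPM per kilobase of the canonical transcript (means of 2 DMSO libraries). TUBA1B was the most abundant, with 2017 ± 272 CPM per kb (SD, n = 2). TUBB, the main beta isotype of dividing cells, followed with 1012 ± 231 CPM per kb (SD, n = 2). TUBA1A and TUBA1C came next with 622 ± 151 and 607 ± 142 CPM per kb (SD, n = 2), and their ranges overlapped. TUBB4B, a widely expressed beta isotype, had 396 ± 86.1 CPM per kb (SD, n = 2). TUBB3, widely used as a neuronal marker, and TUBB6 had 156 ± 67.9 and 113 ± 10.6 CPM per kb (SD, n = 2), and their ranges overlapped too. TUBG1 had 68.8 ± 2.02 CPM per kb (SD, n = 2), above TUBB2A with 25.3 ± 3.72 and TUBB2B with 11.1 ± 0.732. The other neighbours in this order did not overlap in DMSO. In doxorubicin TUBA1B and TUBB had 437 ± 92.4 and 422 ± 74.7 CPM per kb (SD, n = 3) and overlapped, and TUBA1A followed with 311 ± 120 (SD, n = 3), overlapping TUBB. TUBA1C, TUBB4B, TUBB6 and TUBB3 then had means between 110 and 125 CPM per kb, each overlapping the next. The order rests on the transcript chosen for each gene, and TUBA1C has the longest, with 2823 bases against 1672 or fewer for the other alpha genes.

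Next, the tubulin mRNAs of doxorubicin-treated and control cells were compared. TUBA1B, TUBA1C, TUBB4B and TUBG1 fell after doxorubicin, the alpha genes by the most. TUBB and TUBA1A lay lower in every doxorubicin library than in either DMSO library but did not pass the test, and TUBB3, TUBB6, TUBB2A and TUBB2B overlapped between the groups. Of the 10 members, 4 passed the threshold (edgeR quasi-likelihood test over all genes, adjusted p under 0.01), and all 4 were lower, where 2.73% of the 14187 genes tested passed it in that direction and 4.02% in either. The median log2 fold change (log2FC) of the members was -1.05, against 0.013 for all genes tested. In 6 of 10 members every doxorubicin library was below every DMSO library, where 23.4% of the genes tested had this order. In bulk RNA, fewer cells in a state with much tubulin mRNA and less tubulin mRNA per cell cannot be told apart. The members had been chosen with earlier results of these data known. Of the same 10 genes, DESeq2 called 5 (TUBB added), where 8.18% of all genes passed as lower, and limma voom called 4, where 2.59% did. The number of calls changed when a library was omitted, while the log2FC of TUBA1B stayed between -2.38 and -2.07, that of TUBA1C between -2.52 and -2.03 and that of TUBB4B between -1.90 and -1.46. Without DMSO replicate 1 the calls were TUBA1C and TUBB4B (2 genes, against 1.26% of all genes), and without DMSO replicate 2 the call was TUBA1C (1 gene, against 0.321%). Without replicate 1 of 0.2 μM they were TUBA1B and TUBA1C (2 genes, against 0.974%), without replicate 2 of 0.2 μM there were 0 (against 1.04%), and without the 0.34 μM library the call was TUBA1C (1 gene, against 1.01%).

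**Figure D1:**
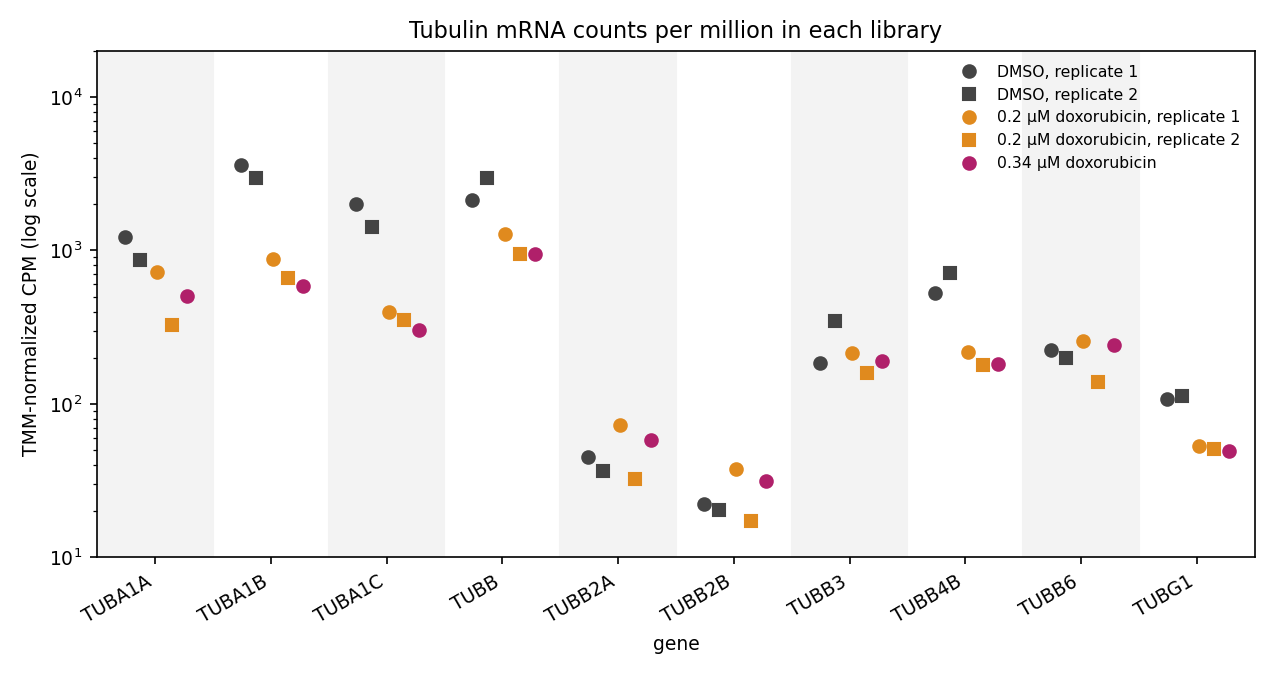
TMM-normalized CPM of each tubulin gene (horizontal axis) in each of the 5 libraries, on a log scale. Points of TUBA1B, TUBA1C, TUBB4B and TUBG1 in doxorubicin lie well below those in DMSO, and in TUBB2A, TUBB2B, TUBB3 and TUBB6 the groups overlap.

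Among the alpha genes, which lie side by side on chromosome 12 of GRCh38, TUBA1B (49127782 to 49131395) had 94229 and 75816 counts in DMSO, 22748 and 15989 at 0.2 μM and 21418 at 0.34 μM. This was 3595 and 2970 CPM in DMSO and 880, 665 and 590 CPM in doxorubicin. The groups were far apart, and the lowest DMSO value was more than any treated value by a wide margin. The log2FC of TUBA1B was -2.21 ± 0.22 (SE, 95% interval -2.73 to -1.68, edgeR adjusted p = 0.00219), which left 21.7% of the DMSO level. TUBA1C (49227926 to 49274600) behaved much like it, with 1997 and 1431 CPM in DMSO and 400, 354 and 304 CPM in doxorubicin. Its log2FC was -2.28 ± 0.21 (SE, 95% interval -2.78 to -1.78, edgeR adjusted p = 0.00171), so that 20.6% of the DMSO level was left. TUBA1A (49184795 to 49189080), the alpha isotype best known from developing neurons, lies between them on the chromosome. It had 1217 and 861 CPM in DMSO and 726, 326 and 508 CPM in doxorubicin. The groups did not overlap, but the lowest DMSO and the highest treated library were close. The log2FC of TUBA1A was -0.999 ± 0.34 (SE, 95% interval -1.80 to -0.20, edgeR adjusted p = 0.0974), and the call was also missed in DESeq2 (adjusted p = 0.0203) and limma voom (adjusted p = 0.0922).

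Among the beta genes, TUBB4B (chromosome 9, 137241287 to 137243707) had 13746 and 18247 counts in DMSO, 5605 and 4327 at 0.2 μM and 6628 at 0.34 μM. This was 524 and 715 CPM in DMSO and 217, 180 and 183 CPM in doxorubicin. The 3 treated libraries lay close together, below both controls. Its log2FC was -1.68 ± 0.19 (SE, 95% interval -2.13 to -1.23, edgeR adjusted p = 0.00343). TUBB4B overlaps CIMIP2A in the RefSeq annotation, and reads of the 2 genes may not be told apart if the counting did not use strand. TUBB (chromosome 6, 30720352 to 30725422) had 2134 and 2957 CPM in DMSO and 1279, 954 and 954 CPM in doxorubicin. All treated values of TUBB were lower, and the DMSO libraries differed by more than the treated libraries did. The log2FC of TUBB was -1.26 ± 0.22 (SE, 95% interval -1.79 to -0.73, edgeR adjusted p = 0.0150), just outside the threshold. It passed in DESeq2 (adjusted p = 2.9e-06) and in edgeR without the filter on low counts (adjusted p = 0.00486, where 2.97% of all genes passed as lower) but not in limma voom (adjusted p = 0.0153).

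The other beta genes gave no call. TUBB3 (chromosome 16, 89921925 to 89936097) had 183 and 347 CPM in DMSO and 215, 159 and 190 CPM in doxorubicin. DMSO replicate 2 alone was high, and the remaining libraries lay together. The log2FC of TUBB3 was -0.50 ± 0.28 (SE, edgeR adjusted p = 0.285), and it was 0.019 without DMSO replicate 2. TUBB6 (chromosome 18, 12307669 to 12329826), which overlaps AFG3L2, had 226 and 198 CPM in DMSO and 258, 139 and 242 CPM in doxorubicin. The DMSO values of TUBB6 fell inside the treated range. Its log2FC was 0.0068 ± 0.27 (SE, 95% interval -0.64 to 0.66, edgeR adjusted p = 0.991), and its sign differed between tools, with -0.04 in limma voom. TUBB2A and TUBB2B, neighbours on chromosome 6 (3153666 to 3157544 and 3224277 to 3227653), were the least abundant members in DMSO. TUBB2A had 45.2 and 36.7 CPM in DMSO and 72.9, 32.6 and 58.3 CPM in doxorubicin. TUBB2B had 22.3 and 20.3 CPM in DMSO and 37.6, 17.4 and 31.3 CPM in doxorubicin. In both genes replicate 2 of 0.2 μM was the lowest of all libraries and the other treated libraries were above the controls. The log2FC values were 0.42 for TUBB2A (95% interval -0.37 to 1.20) and 0.44 for TUBB2B (95% interval -0.33 to 1.20), with adjusted p-values of 0.443 and 0.407 from edgeR.

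TUBG1 (chromosome 17, 42609683 to 42615238), the main gamma tubulin gene, differed least between replicates among the members. It had 2839 and 2882 counts in DMSO, 1381 and 1224 at 0.2 μM and 1796 at 0.34 μM, or 108 and 113 CPM in DMSO and 53.4, 50.9 and 49.5 CPM in doxorubicin. The groups were tight and apart. Its log2FC was -1.11 ± 0.13 (SE, 95% interval -1.42 to -0.80, edgeR adjusted p = 0.00373), and it lay between -1.15 and -1.08 when any 1 library was omitted, with an edgeR adjusted p between 0.0112 and 0.0339, so that the call was lost in all 5 of these fits. Its paralog TUBG2, with 24.4 and 17.5 CPM in DMSO and 21.2, 17.6 and 20.4 CPM in doxorubicin, overlapped between the groups (log2FC -0.08 ± 0.21 (SE), edgeR adjusted p = 0.819).

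**Figure D2:**
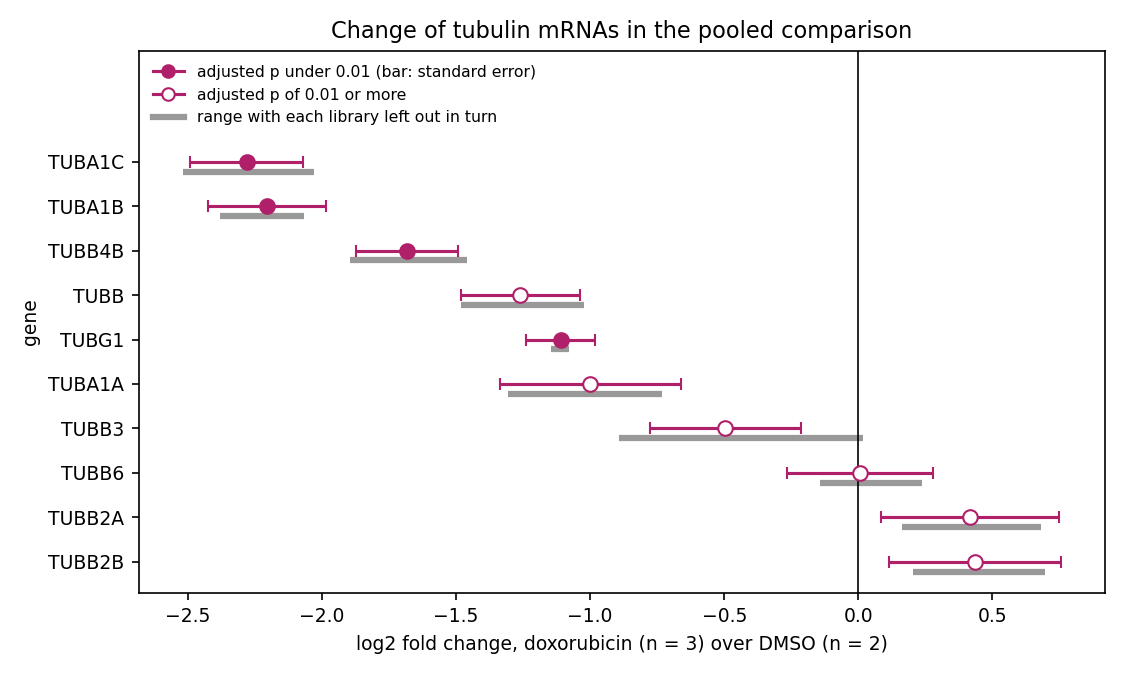
log2 fold change of each tubulin gene, doxorubicin over DMSO, with its SE as a bar. Filled points passed an adjusted p of 0.01, and grey lines span the values when any 1 library is omitted. TUBA1C and TUBA1B lie at -2.28 and -2.21, TUBB4B at -1.68 and TUBG1 at -1.11, and the grey lines of TUBB3 and TUBB6 reach 0 or cross it.

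The makeup of the alpha and of the beta tubulin mRNA was then described. Within each library, the level per length of a gene was divided by the sum over its family, so that the scaling between libraries does not enter. With 3 against 2 libraries the smallest p of the exact permutation test (two-sided, on the difference of means) is 0.1, so no share could pass a threshold of 0.05. TUBA1B made up 60.6% and 64.1% of alpha tubulin mRNA in DMSO and 48.4%, 56.1% and 46.8% in doxorubicin. TUBA1A made up 19.98% and 18.1% in DMSO and 38.9%, 26.7% and 39.3% in doxorubicin, a difference of 15.9 percentage points (exact permutation p = 0.2). The share of TUBA1A was thus larger in every treated library, least so in replicate 2 of 0.2 μM. TUBA1C made up 19.4% and 17.8% in DMSO and 12.7%, 17.2% and 13.9% in doxorubicin.

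In the beta family, TUBB was the most abundant isotype in every library, with 58.5% and 59.5% in DMSO and 52.2%, 54.9% and 48.1% in doxorubicin. TUBB4B made up 23.1% and 23.2% in DMSO and 14.2%, 16.7% and 14.8% in doxorubicin, a difference of -7.90 percentage points (exact permutation p = 0.1, the smallest possible). The DMSO libraries were nearly equal in this share and well above the treated libraries. TUBB6 made up 8.29% and 5.34% in DMSO and 14.1%, 10.7% and 16.3% in doxorubicin. TUBB3 made up 7.41% and 10.3% in DMSO and 12.9%, 13.5% and 14.1% in doxorubicin (exact permutation p = 0.1). Both were larger in every treated library than in either control. TUBB2A made up 1.54% ± 0.549 (SD, n = 2) in DMSO and 4.04% ± 0.972 (SD, n = 3) in doxorubicin, and TUBB2B made up 0.667% ± 0.187 (SD, n = 2) and 1.79% ± 0.421 (SD, n = 3). Together, TUBB2A, TUBB2B, TUBB3 and TUBB6 made up 18.4% and 17.3% of beta tubulin mRNA in DMSO and 33.6%, 28.5% and 37.1% in doxorubicin (exact permutation p = 0.1). This grouping was chosen after the values were seen. The shares of a family sum to 100%, so they are not independent of each other.

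**Figure D3:**
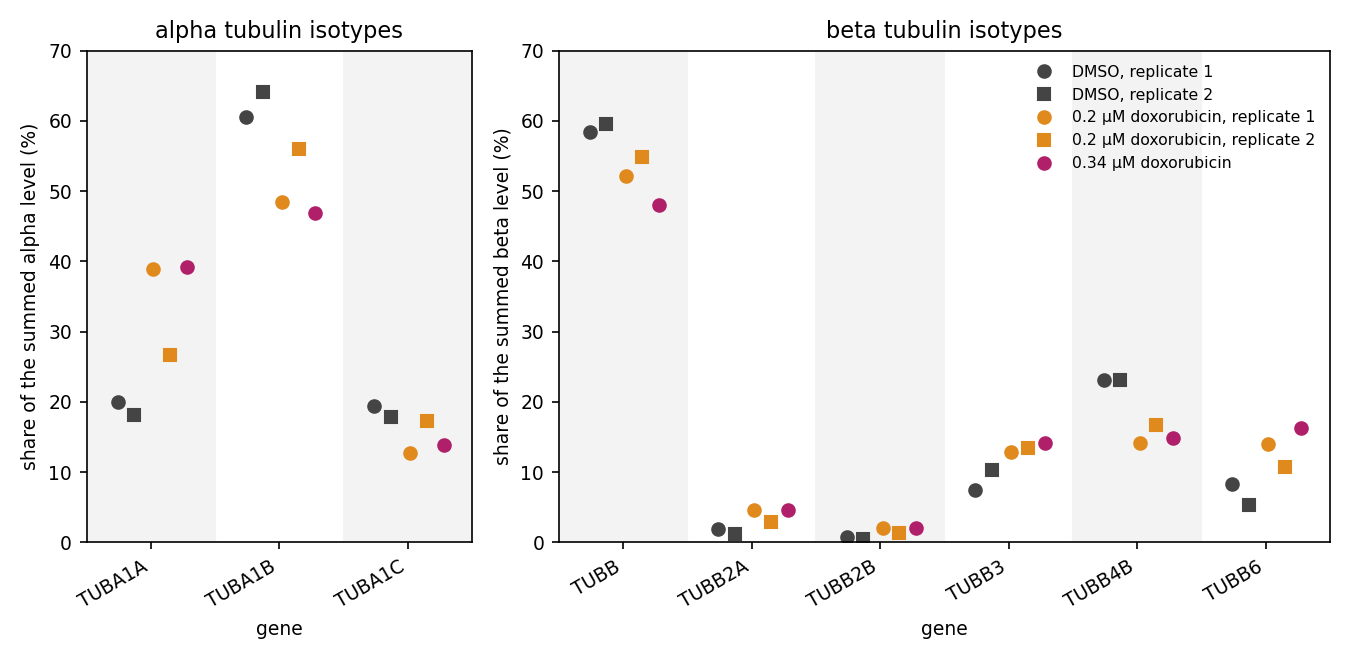
Share of each isotype in the summed level per length of its family (vertical axis, percent) for the alpha genes on the left and the beta genes on the right, by library. TUBA1A makes up 18.1% and 19.98% of alpha mRNA in DMSO and between 26.7% and 39.3% in doxorubicin, and TUBB4B makes up 23.1% and 23.2% of beta mRNA in DMSO and between 14.2% and 16.7% in doxorubicin.

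The levels were also summed over each family, after the single genes had been seen. The 3 alpha genes summed to 3645 and 2847 CPM per kb in DMSO and to 1116, 729 and 774 CPM per kb in doxorubicin. The 6 beta genes summed to 1452 and 1975 CPM per kb in DMSO and to 975.1, 691 and 789 CPM per kb in doxorubicin. The treated means were 26.9% and 47.8% of the control means. The ratio of alpha to beta mRNA was 2.51 and 1.44 in DMSO and 1.14, 1.05 and 0.982 in doxorubicin (exact permutation p = 0.1). The treated libraries thus had similar amounts of alpha and beta mRNA per length, and the DMSO libraries differed widely from each other in this ratio. All 10 members took 0.986% and 1.01% of the counts in DMSO and 0.403%, 0.291% and 0.307% in doxorubicin.

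The doses were then set side by side. At 0.34 μM, 7 of 10 members lay between the 0.2 μM replicates, and TUBA1B, TUBA1C and TUBG1 lay slightly below both. In the comparison of the doses, 0 members were called by edgeR, DESeq2 or limma voom, where 0% of 14745 genes passed. At an unadjusted p under 0.05 there were also 0 members in each tool, against 0.183%, 0.176% and 0.163% of all genes in edgeR, DESeq2 and limma voom. The log2 differences were between -0.39 for TUBA1B (95% interval -1.17 to 0.39) and 0.29 for TUBB6 (95% interval -0.62 to 1.20), and the 95% intervals of all 10 members include 0. The narrowest was that of TUBG1, from -0.66 to 0.51. Differences of this size were not detectable with 1 library at 0.34 μM, whose spread was taken from the other conditions. Against DMSO, in this fit of 3 conditions, the log2FC values of TUBA1C were -2.19 at 0.2 μM and -2.50 at 0.34 μM, and those of TUBG1 were -1.09 and -1.16. At 0.2 μM TUBA1B and TUBA1C passed (edgeR adjusted p = 0.00976 and 0.00806) and TUBG1 did not (0.0341). For 0.34 μM against DMSO only log2FC values are given, since that dose has 1 library. Of all 14745 genes, 0.963% passed as lower at 0.2 μM. TUBB4B, called in the pooled comparison, did not pass at 0.2 μM (edgeR adjusted p = 0.0192). Its log2FC values were -1.65 at 0.2 μM and -1.77 at 0.34 μM. Both sets share the DMSO libraries, and the 0.34 μM set rests on 1 library.

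The promoters of genes that fell are shown because genes used in G2 and mitosis often carry a cell cycle genes homology region (CHR), which is bound by complexes built on MuvB, together with CCAAT boxes bound by NF-Y. The search covered the 250 bases before each RefSeq start on GRCh38, on both strands, for 3 motifs. The CHR was searched as TTTGAA, read on either strand of the promoter window, and also as the variant form TTCGAA, which reads the same on both strands. The CCAAT box was searched as CCAAT on either strand, so that ATTGG marks it on the opposite strand. The E2F forms were TTTCCCGC or TTTGGCGC or TTTGCCGC or TTTCGCGC on either strand. The letters of these motifs do not overlap in the windows printed here. Matches are in capitals (5′ to 3′ on the strand of the gene).
TUBA1C, chr12:49264832-49265081, plus strand: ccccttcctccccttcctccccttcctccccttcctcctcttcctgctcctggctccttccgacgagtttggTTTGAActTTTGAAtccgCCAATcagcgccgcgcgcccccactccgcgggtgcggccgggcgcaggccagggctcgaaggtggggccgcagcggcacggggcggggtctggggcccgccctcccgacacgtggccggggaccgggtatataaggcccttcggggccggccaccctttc
TUBB4B, chr9:137241037-137241286, plus strand: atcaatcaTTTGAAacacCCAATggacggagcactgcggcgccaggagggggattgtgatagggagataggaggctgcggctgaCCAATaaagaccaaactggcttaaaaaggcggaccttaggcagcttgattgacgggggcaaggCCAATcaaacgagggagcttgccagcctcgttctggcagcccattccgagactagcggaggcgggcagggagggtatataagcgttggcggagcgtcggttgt
TUBG1, chr17:42609433-42609682, plus strand: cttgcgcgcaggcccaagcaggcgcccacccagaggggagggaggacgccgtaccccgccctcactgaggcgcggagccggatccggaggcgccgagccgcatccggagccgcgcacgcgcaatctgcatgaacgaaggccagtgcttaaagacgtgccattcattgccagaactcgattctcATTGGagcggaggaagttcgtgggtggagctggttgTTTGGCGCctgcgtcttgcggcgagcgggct
TUBA1B, chr12:49131396-49131645, minus strand: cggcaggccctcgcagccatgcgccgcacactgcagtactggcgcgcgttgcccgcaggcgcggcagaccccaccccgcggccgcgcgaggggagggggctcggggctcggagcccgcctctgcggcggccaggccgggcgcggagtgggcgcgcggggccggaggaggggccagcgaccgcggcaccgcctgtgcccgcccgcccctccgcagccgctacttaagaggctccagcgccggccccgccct

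Positions are counted backwards from the start. The TUBA1C window, which lies before the last of 3 RefSeq starts of that gene, held TTTGAA at -178 and -170 and CCAAT at -160. The TUBB4B window held TTTGAA at -242 and CCAAT at -232, -166 and -103. The TUBG1 window held ATTGG at -67 and the E2F form TTTGGCGC at -31, and no CHR letters. The TUBA1B window held none of these letters. Of the 15 windows of the 10 members, 4 (26.7%) held CHR letters, 10 (66.7%) a CCAAT box and 1 (6.67%) an E2F form, against 14.3%, 32% and 2.79% of 35116 promoter windows of the same length. The windows are not all separate, since those of the other TUBA1C starts overlap and hold the same CCAAT box, counted in each. The CHR matches were in TUBA1C, TUBB4B and TUBB3, of which TUBB3 gave no call. CCAAT boxes stood in 8 of 10 members, TUBB2B and TUBB6 among them. A match is a run of letters and was not tested as a binding site.

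Finally, the genes that fold, modify, nucleate and bind tubulin were described from lists compiled from general knowledge. Of the gamma-tubulin ring complex and augmin list, 20 of 20 genes were tested, 16 were lower and 4 passed the threshold, all lower (median log2 fold change -0.90), where 2.73% of all genes tested passed as lower. These were HAUS8, HAUS1, HAUS6 and CDK5RAP2. HAUS8, a subunit of augmin, the complex that branches new microtubules from the spindle, had 9.27 and 11.045 CPM in DMSO and 1.59, 2.00 and 1.18 CPM in doxorubicin (log2FC -2.68 ± 0.30 (SE), edgeR adjusted p = 0.00323). HAUS1 and HAUS6, also of augmin, had log2FC values of -1.39 and -1.35 (edgeR adjusted p = 0.00912 and 0.00761). All 8 augmin genes were lower in every treated library than in either control, with log2FC values between -2.68 and -0.62, where 23.4% of all genes tested had this order, and 3 passed the threshold. CDK5RAP2, which anchors ring complexes at centrosomes, had 92.3 and 83.5 CPM in DMSO and 44.5, 40.5 and 36.9 CPM in doxorubicin (log2FC -1.11 ± 0.15 (SE), edgeR adjusted p = 0.00622). TUBGCP2, a core subunit of the ring, had a log2FC of 0.12 (edgeR adjusted p = 0.653) and TUBGCP3, another core subunit, -1.18 (edgeR adjusted p = 0.0106), both named after their values were seen.

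Of the microtubule binding, growth and severing list, 32 of 35 genes were tested, 20 were lower and 12 higher, and 1 passed the threshold (median -0.26), or 3.12% of those tested, near the 4.02% of all genes. This was TACC3, which acts with CKAP5 on spindle microtubules, with 121 and 177 CPM in DMSO and 22.3, 23.5 and 19.3 CPM in doxorubicin (log2FC -2.78 ± 0.20 (SE), edgeR adjusted p = 0.000912). When any 1 library was omitted, TACC3 was the 1 call among all these lists, in each of the 5 fits, where between 0.335% and 1.48% of all genes passed. STMN1, which sequesters tubulin dimers and was named after its values were seen, had 484 and 600 CPM in DMSO and 181, 258 and 149 CPM in doxorubicin (log2FC -1.47, edgeR adjusted p = 0.0139). Of 22 tubulin folding genes, 22 were tested, 16 were lower and 0 passed in edgeR (median -0.17), with 5 at an unadjusted p under 0.05, where 30.8% of all genes had such a p, 1 called in DESeq2 (CCT5, named after its value was seen) and 0 in limma voom. All 8 subunits of the cytosolic chaperonin, which folds newly made tubulin, had log2FC values between -0.71 and -0.03. Over all genes, 6933 of 14187 tested were lower. Of the 8 subunits, 0 passed in edgeR, and the groups overlapped in all but TCP1 and CCT5, which were lower. Over all genes tested, the groups did not overlap in 47.7%, and 23.4% had every doxorubicin library below every DMSO library. Of 23 tubulin modification genes, 18 were tested, 11 were lower and 0 passed in edgeR (median -0.07), with 8 at an unadjusted p under 0.05 (30.8% of all genes), 4 called in DESeq2 (14.9% of all genes) and 0 in limma voom. TTL, which adds tyrosine back to alpha tubulin and was named after its values were seen, lay just outside with a log2FC of -0.89 (edgeR adjusted p = 0.0107).

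The 3 genes of tubulin mRNA autoregulation gave 0 calls in edgeR, in DESeq2 and in limma voom, and 0 had an unadjusted p under 0.05 in edgeR. TTC5 had 7.63 and 11.8 CPM in DMSO and 12.6, 12.4 and 12.4 CPM in doxorubicin (log2FC 0.36 ± 0.24 (SE), edgeR adjusted p = 0.358), and the treated libraries lay just above the higher control. Of 13 other tubulin genes, 8 were tested, 6 were lower and 0 passed in edgeR (median -0.54), with 3 at an unadjusted p under 0.05 (30.8% of all genes) and 0 called in DESeq2 or limma voom. TUBA4A, an alpha isotype named after its values were seen, had 37.3 and 42.1 CPM in DMSO and 53.1, 65.5 and 55.9 CPM in doxorubicin. Its log2FC was 0.55 ± 0.16 (SE, edgeR adjusted p = 0.0708), and all treated libraries were above the controls. TUBD1, TUBA3D and TUBB1 went the other way, lower in every treated library than in either control, where 23.4% of all genes tested had this order. The log2FC of TUBD1 was -1.015 (edgeR adjusted p = 0.0616). Over these lists DESeq2 called 22 genes, where 14.9% of all genes passed in that test, against 5 in edgeR.

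**Figure D4:**
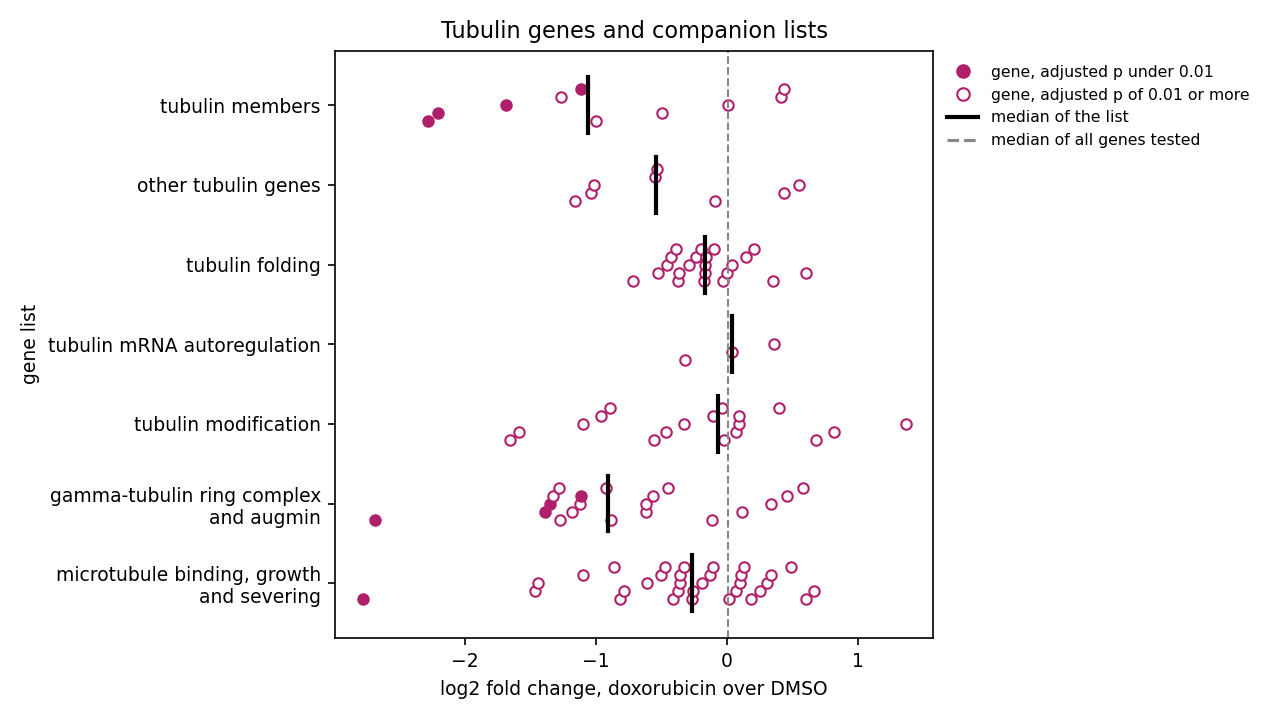
log2 fold change of each tested gene (points, filled where the adjusted p was under 0.01) in the tubulin members and the 6 companion lists, with the median of each list as a black line. The medians of the tubulin members (-1.05) and of the ring complex and augmin list (-0.90) lie furthest below the median of all genes tested (0.013).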

How the data were processed

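RNA-seq was analysed for 5 libraries of RPE1 cells, 2 with DMSO, 2 with 0.2 μM and 1 with 0.34 μM doxorubicin. Raw gene-level counts were deposited. To make them, the authors aligned 75-base read pairs from a stranded poly-A library to hg38 by STAR, then ran featureCounts of Rsubread on the annotation from iGenomes. The sources used here give no versions, strand setting or rule for reads with several matches. A second deposited table holds the fold changes and p-values of the authors' own DESeq2 comparison and was not used.

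The counts were tested in R 4.3.3 with edgeR 4.0.16 (quasi-likelihood test, TMM normalization, minimum count 10 and minimum total 15), on 3 pooled doxorubicin libraries against 2 DMSO libraries as in the study's methods, with no covariates. Over 14187 of 26485 genes, p-values were adjusted by Benjamini-Hochberg, at a threshold of 0.01. The SE was taken as |log2FC|/√F, and 95% intervals use edgeR's total degrees of freedom (prior plus residual, so that spread is shared between genes). DESeq2 1.42.0, limma voom (limma 3.58.1), RLE factors, no filter, a threshold of 0.05, thinning, a replicate block and leaving out each library were alternatives. The doses were compared in a fit of 3 conditions. The procedure was tested on simulated data. The methods call the libraries biological replicates. A chi-square of counts (117 and 75.3 per degree of freedom for the pairs) showed no copies. The members and lists were chosen with earlier results of these data known. All 10 members are named, with companion genes past the threshold (up to 4 a list), TTC5, TUBG2, CDKN1A and PLK1. Positions and promoters are from RefSeq on GRCh38.p14, and all 10 members matched. Transcript lengths, coding sequences and 75-base stretches are from GENCODE v44lift37. Lengths in that annotation may differ from those the authors counted over. Sequences were compared with Biopython 1.88.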

Additional observations from a re-analysis of the deposited data

How the results depend on the processing

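Over the alternative fits of doxorubicin against DMSO, the members other than TUBB3 and TUBB6 kept the sign of their log2 fold change. TUBB3 changed sign without DMSO replicate 2 (0.019), within a range of -0.89 to 0.019 when any 1 library was omitted. TUBB6, at 0.0068, changed sign in limma voom (-0.044), at 0.2 μM in the fit of 3 conditions (-0.099), with the replicate block (-0.15), and without DMSO replicate 2 (-0.10), replicate 1 of 0.2 μM (-0.14) or the 0.34 μM library (-0.087), within a range of -0.14 to 0.24 when any 1 library was omitted. The number of members called, all lower, was 4, where 2.73% of all genes passed as lower. It was 5 with DESeq2 (8.18%), without the filter (2.97%) and at 0.05 (7.48%). With limma voom (2.59%), RLE factors (2.73%) and thinning (2.86%) it was 4. At 0.2 μM in the fit of 3 conditions it was 2 (0.963%), and between 0 and 2 when any 1 doxorubicin library was omitted (0.974% to 1.04%). The companion lists had 5 calls (4.02% of all genes passed), 22 with DESeq2 (14.9%) and 13 without the filter (4.92%). At a threshold of 0.05 they had 21 (13.6%), and at 0.2 μM in the fit of 3 conditions 1 (1.25%). Each fit that left out a doxorubicin library gave 1 (1.28% to 1.48%). With DESeq2 and at 0.05 the share over all genes was larger too. Without the filter 1020 of 20717 genes passed, against 571 of 14187 with it. These 2 shares are taken over different sets of genes and cannot be compared directly. Where a DMSO library was left out, the lone control was assumed to vary like the other groups. The fits with fewer libraries also have fewer degrees of freedom, and the cause of the other differences was not tested. The directions of all 9 isotype shares were the same from counts without length, at 0.2 μM alone and when any 1 library was omitted.

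The labels mark 1 DMSO library and 1 library of 0.2 μM as rep2 and give the others no number. Across 14187 genes the difference between replicates 1 and 2 correlated between the conditions (Pearson's r = 0.528, genes not being independent replicates), but with 2 pairs the numbers do not establish a pairing. With the replicate block at 0.2 μM, 6 members (TUBA1A and TUBB added) and 14 companion genes were called, where 8.99% of all genes passed, and 0 members were called between the doses. Each member had at least 418 counts in every library, and the small number of libraries and the differences between replicates were not separated as limits on the precision.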
